A study of Mus musculus with 8 samples.

Results

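Chemokines and chemokine receptors were followed in dorsal root ganglia, the paired relays of the spinal nerves that house sensory neurons together with glia, vessels and resident immune cells. The members were all genes whose symbols begin with Ccl, Cxcl, Ccr or Cxcr and a digit, plus Cx3cl1, Xcl1 and Xcr1, without Cxcl13 and without names ending in -ps. The rule found 48 of the 25780 genes counted, 31 ligands and 17 receptors. Of these, 45 (30 ligands and 15 receptors) passed the filter on low counts, and Cxcl5, Cxcr1 and Ccr1l1 did not.

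Chemokines are small secreted proteins that guide leukocytes along concentration gradients by binding G protein-coupled receptors on the cells that follow them. Some are made constitutively by stroma and neurons and keep resident cells in place, and others are switched on by inflammatory cytokines through NF-kB or by interferons. In sensory ganglia they are known for recruiting macrophages and lymphocytes, and several have receptors on neurons and take part in pain signalling.

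RNA-seq libraries came from 4 groups of mice, with 2 libraries in each group. The knockout mice (G9a-iKO, below iKO) combined 2 floxed alleles of Ehmt2, the gene of the histone methyltransferase G9a, with an inducible Cre (labelled Avil-iCreERT2/AJwo) driven by the sensory neuron gene Avil, so immune cells and glia were not the cells targeted. The WT mice were littermates that lacked Cre, and their floxed status is not given. The iKO CFA and WT CFA groups were given CFA, complete Freund's adjuvant, which causes lasting inflammation, in the left paw. The iKO vehicle and WT vehicle groups were given vehicle, and all ganglia were taken 14 days afterwards. The labels do not say whether each library was a separate mouse, and the spread that p-values are measured against may therefore be technical. In whole ganglia, fewer cells of a type and less RNA per cell cannot be told apart.

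Libraries held between 26312614 and 42971823 reads. Ehmt2 was at 45.0 and 44.2 CPM (reads scaled to a common library size) in iKO CFA and at 34.0 and 31.6 CPM in iKO vehicle, against 74.2 and 61.3 CPM in WT CFA and 74.4 and 65.4 CPM in WT vehicle, so all 4 iKO libraries lay below all 4 WT libraries. The iKO libraries were lower under vehicle (log2 fold change -1.09 ± 0.18, adjusted p = 0.00655, edgeR's quasi-likelihood test) and did not pass under CFA (-0.60 ± 0.18, adjusted p = 0.154). The WT vehicle libraries stood apart from the other 6. Summed over 3 nuclear noncoding RNAs, the other 6 held 43.9 to 80.7 CPM, against 2986 and 2745 CPM in WT vehicle. Summed over 12 immediate early genes, the other 6 held 222 to 264 CPM, against 1069 and 903 CPM in WT vehicle. Summed over 6 plasma cell markers, the other 6 held 44.6 to 84.3 CPM, against 2124 and 875 CPM in WT vehicle, and Mzb1 was at 0 in both WT CFA libraries. Skeletal muscle transcripts lay at 1.42 to 7.21 CPM in 7 libraries, against 425 CPM in WT vehicle library 1. Erythroid genes summed to 1622 and 1503 CPM in iKO CFA, 405 and 327 in iKO vehicle, 174 and 1486 in WT CFA, and 324 and 138 in WT vehicle, so the WT CFA libraries differed from each other. Sensory neuron markers, which define the tissue, summed to 14815 and 14461 CPM in iKO CFA, 22905 and 23331 in iKO vehicle, 23501 and 15897 in WT CFA, and 11286 and 14638 in WT vehicle. Of these 12 markers, 3 were higher with CFA in WT (8.12% of all genes) and 3 in iKO under vehicle (8.28% of all genes). A negative interaction was found for 5 (3.17% of all genes). The part of these features in the results below was not tested.

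Most chemokine genes were highest in the WT vehicle group. Summed over the 48 members, CPM were 254 and 288 in iKO CFA, 126 and 100 in iKO vehicle, 97.3 and 200 in WT CFA, and 557 and 443 in WT vehicle. The WT vehicle libraries were thus the highest pair, and the iKO CFA pair lay above the remaining 4. Both WT vehicle libraries were above all 6 others for 28 of the 45 members tested (62.2%), where 20.6% of all genes tested were. They were below all 6 for 0 members, where 17.1% of all genes were. Both iKO CFA libraries were above all 6 others for 6 members (7.56% of all genes), namely Ccl6, Ccl21a, Ccr1, Ccr2, Ccr3 and Cxcr2, and below all 6 for Ccl21b and Ccl28 (6.81% of all genes). Both iKO vehicle libraries were above all others for Ccl21b (9.81% of all genes) and below them for 4 members, Ccl7, Ccl11 and Ccl25 among them (7.04% of all genes). Both WT CFA libraries were above all others for Ccl28 (3.51% of all genes) and below them for Ccl8, Ccl17, Ccl19, Ccl24 and Cx3cl1 (4.58% of all genes).

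**Figure D1:**
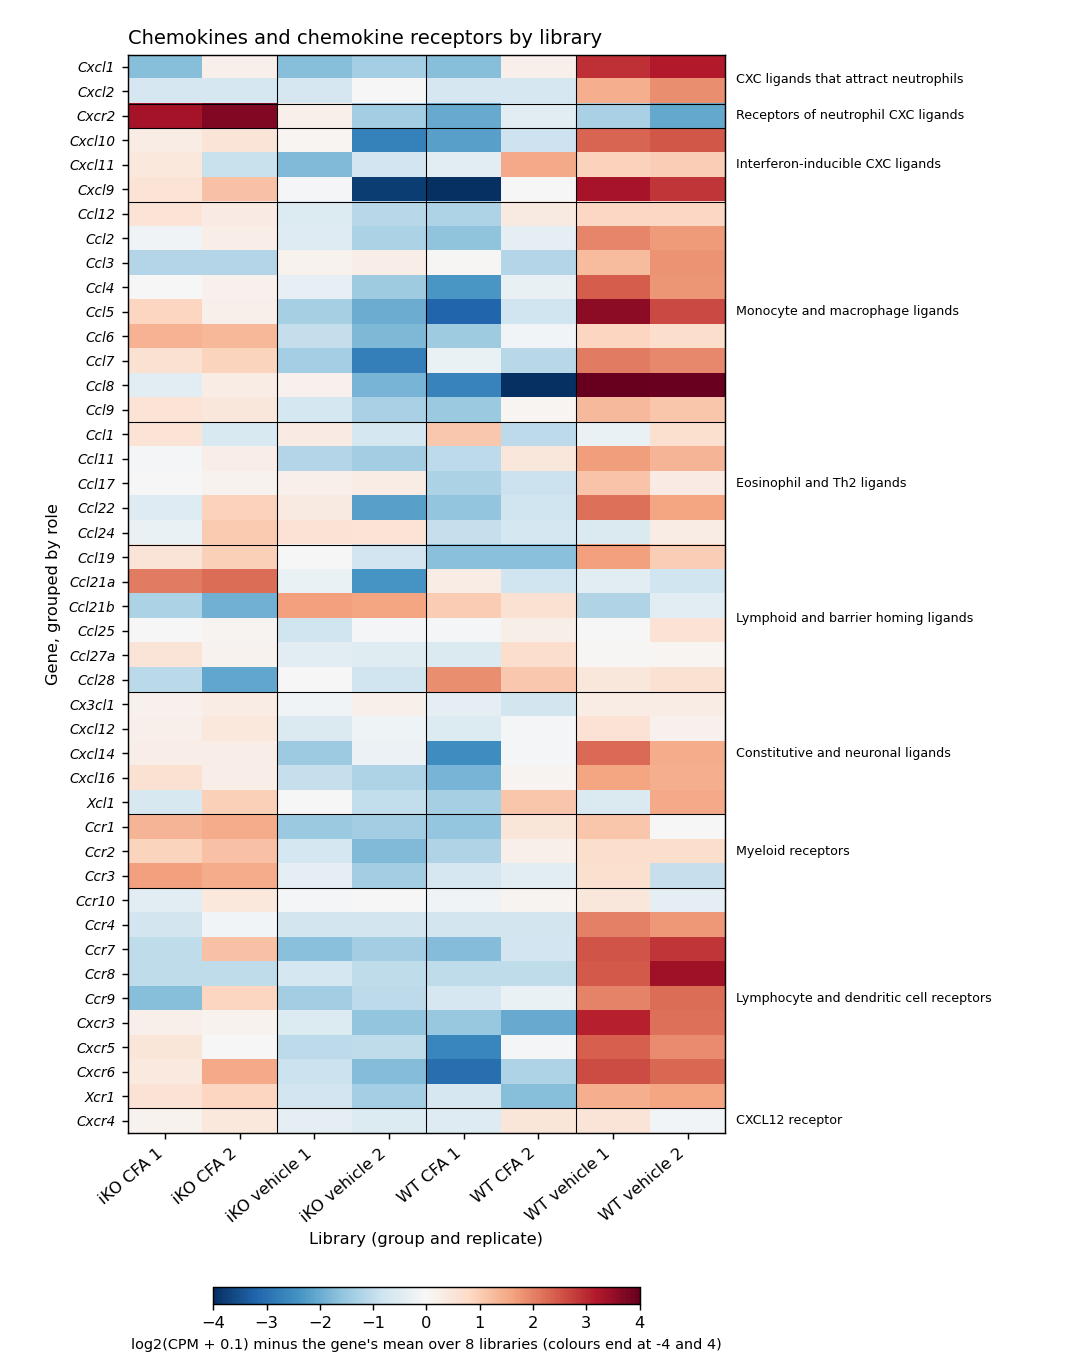
Heat map of 44 members tested (rows, grouped by role) in the 8 libraries (columns), as log2(CPM + 0.1) minus the gene's mean over the libraries, with red above and blue below that mean. The WT vehicle columns are red for most rows, Cxcr2 is red in both iKO CFA columns, and Ccl28 is red in the WT CFA columns.

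The first comparison asked how CFA changed these genes in WT mice. After CFA 17 of 45 members were lower and 0 were higher, where 8.71% of all genes tested were lower and 8.12% higher (edgeR's quasi-likelihood test, adjusted p under 0.05 over all 20235 genes). At an unadjusted p under 0.05, 29 members were lower and 0 higher, but the share of all genes at that threshold was not computed here. Both WT CFA libraries were below both WT vehicle libraries for 32 members (30.8% of all genes) and above them for 2 (25.3% of all genes). The median log2 fold change was -2.10 over the members and -0.03 over all genes. It was also -2.10 with the 4 genes that had 0 reads in WT CFA set at their bound. These calls leaned on single libraries. When 1 library was left out, the member count and the share of all genes called lower rose or fell together. Without WT vehicle library 1 only Ccl8 passed, and without WT vehicle library 2 there were 5 lower members. Without either iKO CFA library there were 11, without either iKO vehicle library 15, and without WT CFA libraries 1 and 2 there were 21 and 28. The calls of 4 members, Ccl2, Ccl5 and Cxcr3 among them, were lost only without WT vehicle library 1. Those of Ccl7, Ccl19, Ccr7, Ccr8, Cxcl10 and Cxcr6 were lost without either WT vehicle library, and the other 6 also without libraries of other groups.

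The second comparison, iKO against WT under vehicle, used the same WT vehicle libraries as its reference. In iKO ganglia 19 of 45 members were lower and 0 were higher, where 9.33% of all genes were lower and 8.28% higher. At an unadjusted p under 0.05, 28 were lower and 1 higher, again without a computed share of all genes. Both iKO vehicle libraries were below both WT vehicle libraries for 37 members (36.5% of all genes) and above them for 2 (38.9% of all genes). The median log2 fold change was -2.43 over the members, also with the single gene at 0 reads set at its bound, and 0.01 over all genes. When 1 library was left out, the counts of lower members below and the share of all genes called lower rose or fell together. Without WT vehicle library 1 2 members passed, Ccl7 among them. Without iKO vehicle library 2 there were 3 lower, without WT vehicle library 2 there were 9, and without iKO vehicle library 1 there were 10. Without either iKO CFA library there were 16, and without either WT CFA library 30. The call of Ccl8 was lost only without WT vehicle library 1, those of Ccl2, Ccl5, Ccl11 and Cxcr3 without that library or iKO vehicle library 2, and the other 12 without further libraries too.

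In iKO mice the values after CFA were mostly higher than after vehicle, but no member passed. At an unadjusted p under 0.05, 17 of 45 members were higher (13.8% of all genes) and 2 lower (14.8% of all genes). Over all genes, 0.0395% were higher and 0% lower at an adjusted p under 0.05, and the smallest adjusted p of a member was 0.0831. Both iKO CFA libraries were above both iKO vehicle libraries for 28 members (33.9% of all genes) and below them for 4 (35.6% of all genes). The median log2 fold change was 1.33 over the members, 1.35 over the 42 with more than 3 reads in either group and with bounds for genes at 0, and -0.00 over all genes. DESeq2 called 14 members higher and 0 lower (7.86% and 9.18% of all genes), with no adjusted p for 12. A fit to the iKO libraries alone called 19 higher and 1 lower of 38 tested (22.0% and 23.4% of all genes). Without both WT vehicle libraries 0 members were higher. Without WT CFA library 1, 19 were higher and 1 lower (14.5% and 17.6% of all genes), and without WT CFA library 2, 20 were higher and 1 lower (14.3% and 17.7% of all genes).

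Under CFA, iKO and WT ganglia differed in 2 members. Cxcr2 was higher in iKO (1 of 45, where 1.5% of all genes were higher) and Ccl28 was lower (1 of 45, where 0.208% were lower), and 1.7% of all genes differed in either direction. Both iKO CFA libraries were above both WT CFA libraries for 27 members (21.6% of all genes) and below them for 2 (16.7% of all genes). The median log2 fold change was 1.16 over the members, 1.28 over 42 members with bounds, and -0.02 over all genes. Without WT CFA library 2, 22 members were higher and 2 lower, where 11.4% of all genes were higher and 15.4% lower. No member passed without iKO CFA library 1 or without iKO CFA library 2, or with both WT vehicle libraries left out.

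The CFA responses of the 2 genotypes were compared by an interaction term, the log2 response in iKO minus that in WT. It passed as positive for 18 of 45 members (6.19% of all genes) and as negative for Ccl21b alone (3.17% of all genes), with 9.36% of all genes passing in either direction. Its median was 3.59 over the 37 members with more than 3 reads in every group, and -0.04 over all genes tested. When 1 library was left out, the positive counts below and the share of all genes that passed as positive rose or fell together. Without WT vehicle library 1 3 members passed, all positive, Ccl7 and Ccl8 among them. The positive count was 11 without WT vehicle library 2, 9 and 7 without iKO CFA libraries 1 and 2, and 12 and 7 without iKO vehicle libraries 1 and 2. It was 25 and 28 without WT CFA libraries 1 and 2. The calls of Ccl5, Ccl6 and Cxcr3 were lost only without WT vehicle library 1, and the other 13 without further libraries too.

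**Figure D2:**
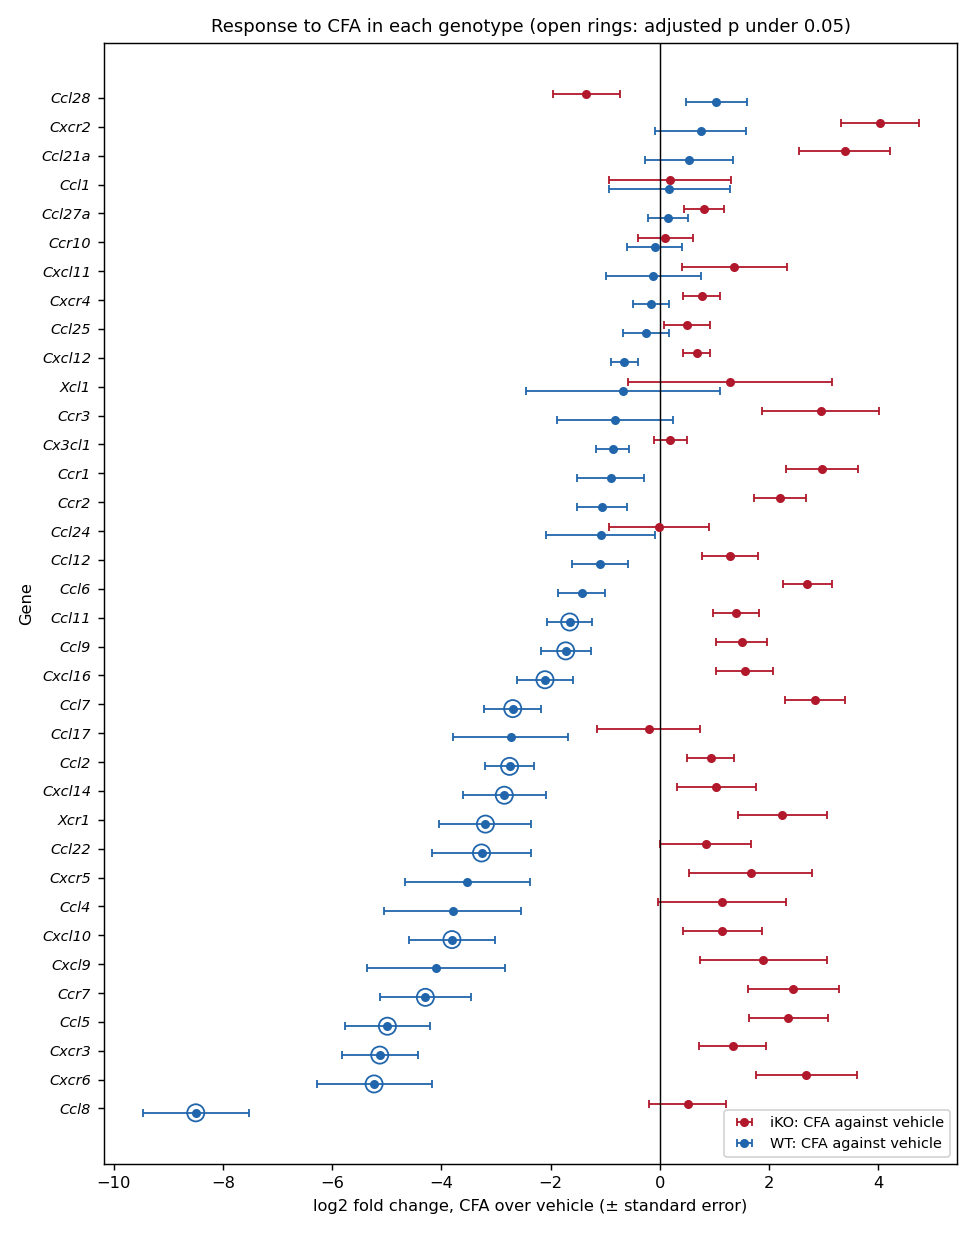
Log2 fold change of CFA over vehicle (x axis, ± standard error) in iKO (red) and in WT (blue) for 36 members with more than 3 reads in each of the 4 groups, 2 libraries per group. Rings mark adjusted p under 0.05, which occur only among the blue points, and the red points lie right of 0 for 33 of the 36 genes.

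Cxcl9, Cxcl10 and Cxcl11 are interferon-inducible ligands that draw activated T cells through the receptor Cxcr3. Cxcl10 was at 11.7 and 13.9 CPM in iKO CFA, 10.1 and 1.38 in iKO vehicle, 2.03 and 5.37 in WT CFA, and 49.0 and 53.8 in WT vehicle. Cxcl9 was at 12.5 and 19.4 CPM in iKO CFA, 7.97 and 0.517 in iKO vehicle, 0.427 and 8.32 in WT CFA, and 84.6 and 62.6 in WT vehicle. For both genes the WT vehicle libraries were above the rest, and the iKO vehicle pair spread widely. Cxcl10 fell with CFA in WT (-3.81 ± 0.79, adjusted p = 0.0169) and was lower in iKO under vehicle (-3.15 ± 0.76, adjusted p = 0.0263). Its interaction was 4.95 ± 1.06 (adjusted p = 0.0277). With WT vehicle library 1 left out, these adjusted p were 0.109, 0.137 and 0.115. Cxcl9 had changes of similar or larger size but did not pass, at -4.10 ± 1.26 with CFA in WT (adjusted p = 0.0566) and -4.10 ± 1.25 in iKO under vehicle (adjusted p = 0.0539). Cxcl11 did not pass anywhere and was highest, at 2.05 CPM, in WT CFA library 2. Cxcr3 itself was at 0.844 and 0.795 CPM in iKO CFA, 0.466 and 0.172 in iKO vehicle, 0.187 and 0.103 in WT CFA, and 6.94 and 3.66 in WT vehicle. The receptor was highest in WT vehicle and next highest in iKO CFA, as Cxcl9 and Cxcl10 were. It fell with CFA in WT (-5.13 ± 0.69, adjusted p = 0.00405), was lower in iKO under vehicle (-4.02 ± 0.63, adjusted p = 0.00582), and had an interaction of 6.46 ± 0.92 (adjusted p = 0.00678). In fits that omitted WT vehicle library 1, these adjusted p were 0.0619, 0.0863 and 0.0618.

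Promoters are shown for this pair and for Cxcl1 and Cxcl2, because these ligands are textbook targets of NF-kB and interferon and were highest together in the WT vehicle libraries. Each is the 250 bases before the gene's start in RefSeq's GRCm38.p6, read along the gene from 5′ to 3′. Capitals mark matches on either strand to an NF-kB motif (GGGA, then 2 bases of any kind, then TTCC) or to an interferon response motif (GAAA, then 2 bases of any kind, then GAAA), both motifs being chosen after the sequences had been seen. The windows are chr5:92328080-92328329 (minus strand) for Cxcl9, chr5:92348890-92349139 (minus strand) for Cxcl10, chr5:90890995-90891244 (plus strand) for Cxcl1 and chr5:90903649-90903898 (plus strand) for Cxcl2.
Cxcl9: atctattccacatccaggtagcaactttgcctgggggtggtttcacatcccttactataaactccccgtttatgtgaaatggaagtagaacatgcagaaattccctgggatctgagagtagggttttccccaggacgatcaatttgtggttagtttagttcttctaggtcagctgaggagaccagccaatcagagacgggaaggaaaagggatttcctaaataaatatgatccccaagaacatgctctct
Cxcl10: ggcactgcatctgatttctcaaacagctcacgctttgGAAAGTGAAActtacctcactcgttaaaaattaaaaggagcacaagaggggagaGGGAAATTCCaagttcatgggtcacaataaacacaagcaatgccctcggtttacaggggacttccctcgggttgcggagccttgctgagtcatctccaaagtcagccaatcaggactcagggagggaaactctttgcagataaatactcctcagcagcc
Cxcl1: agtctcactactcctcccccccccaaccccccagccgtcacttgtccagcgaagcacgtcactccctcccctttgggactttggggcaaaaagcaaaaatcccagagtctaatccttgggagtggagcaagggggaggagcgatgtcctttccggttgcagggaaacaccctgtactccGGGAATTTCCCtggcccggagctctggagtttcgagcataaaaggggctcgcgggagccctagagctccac
Cxcl2: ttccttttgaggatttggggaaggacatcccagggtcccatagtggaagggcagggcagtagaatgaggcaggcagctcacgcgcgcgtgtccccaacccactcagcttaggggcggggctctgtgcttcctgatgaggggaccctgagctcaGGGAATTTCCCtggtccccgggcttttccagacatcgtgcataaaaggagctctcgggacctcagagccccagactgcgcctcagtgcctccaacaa
Cxcl10 held 1 match to each motif, the interferon motif lying 213 to 204 bases before the start and the NF-kB motif 159 to 150 bases before it. Cxcl1 and Cxcl2 each held 2 NF-kB matches, 1 per strand, that overlap and form the run in capitals. No match to these letters lay in the Cxcl9 window. The NF-kB letters occurred in 1.21% of 32851 RefSeq promoters of this length and in 5 of the 35 members with a promoter in the table (Ccl1, Ccr3, Cxcl1, Cxcl2 and Cxcl10). The interferon letters occurred in 2.98% of promoters and in 3 members (Ccl19, Cxcl10 and Cxcl14). The percentages count promoters (32851 for 27025 genes) while the members are counted as genes, so the 2 are not directly comparable. Cxcl1, Cxcl2 and Cxcl10 were among the sequences seen before the motifs were chosen, so their matches are no support for an excess. A match describes the sequence and is not evidence of binding.

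Cxcl1 and Cxcl2 recruit neutrophils through Cxcr2. Cxcl1 had 0 and 10 reads in iKO CFA, 0 and 1 in iKO vehicle, 0 and 8 in WT CFA, and 71 and 95 in WT vehicle (2.38 and 2.83 CPM). It was lower in iKO under vehicle (adjusted p = 0.0347), a ratio of 198-fold with a 95% interval of 35.0 to 7867 that covers counting error only. Its adjusted p was 0.187 without WT vehicle library 1 and 0.194 and 0.149 without iKO vehicle libraries 1 and 2, and the call was also lost without WT vehicle library 2. Its lower level with CFA in WT did not pass (-4.29 ± 1.52, adjusted p = 0.0849). Cxcl2 had at most 2 reads in each library of the other groups, against 10 and 16 in WT vehicle, and passed in no comparison. Their receptor Cxcr2, a defining receptor of neutrophils, was highest in another group. Cxcr2 was at 11.5 and 14.9 CPM in iKO CFA, 1.25 and 0.344 in iKO vehicle, 0.187 and 0.753 in WT CFA, and 0.369 and 0.179 in WT vehicle. The iKO CFA libraries exceeded every other library by a wide margin. Cxcr2 was higher in iKO than in WT under CFA (4.85 ± 0.75, adjusted p = 0.0184), with adjusted p of 0.0825 and 0.128 without iKO CFA libraries 1 and 2. Its CFA response in iKO was 4.03 ± 0.71 (adjusted p = 0.0831, and 6.21e-06 with DESeq2). The interaction did not pass (3.29 ± 1.08, adjusted p = 0.0860). Its neighbour Cxcr1, too low to test, had 2 and 30 reads in iKO CFA, 6 and 0 in iKO vehicle, 0 and 5 in WT CFA, and 0 in both WT vehicle libraries. Neutrophil markers moved with Cxcr2. Summed over 11 markers they were at 1494 and 1498 CPM in iKO CFA, 99.9 and 67.7 in iKO vehicle, 30.3 and 253 in WT CFA, and 55.6 and 29.2 in WT vehicle. Of the 11 markers 3 were higher in iKO under CFA (1.5% of all genes). S100a8 and S100a9 were above 0 in every library. Ly6g, named after its values had been seen, was at 0 in 1 iKO vehicle and 1 WT CFA library. The part of neutrophil content, and of the erythroid genes given above, in the Cxcr2 difference was not tested.

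The ligands that draw monocytes and macrophages, many of them through Ccr2 or Ccr1, included many of the members called. After CFA in WT 5 of these 9 ligands were lower (8.71% of all genes), in iKO under vehicle 6 were lower (9.33% of all genes), and for 6 the interaction passed as positive (6.19% of all genes). Ccl8, a monocyte attractant, was at 1.42 and 2.38 CPM in iKO CFA, 2.18 and 0.459 in iKO vehicle, 0.214 and 0 in WT CFA, and 56.6 and 31.2 in WT vehicle. No library outside WT vehicle exceeded 2.38 CPM. Ccl8 fell with CFA in WT (-8.50 ± 0.98, adjusted p = 0.00209), with 8 reads in all in WT CFA against 2738 in WT vehicle. It was also lower in iKO under vehicle (-5.03 ± 0.75, adjusted p = 0.00487) and had an interaction of 9.01 ± 1.20 (adjusted p = 0.00538). Its fall in WT passed without each library in turn, with a range of -13.54 to -7.66. The value of -13.54 came without WT CFA library 1, which leaves 0 reads in that group, and is no bound. The iKO difference under vehicle had an adjusted p of 0.0574 without WT vehicle library 1. Its CFA response within iKO was 0.51 ± 0.71 (adjusted p = 0.665).

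Ccl2 and Ccl7 are classical Ccr2 ligands. Ccl2 was at 4.01 and 5.29 CPM in iKO CFA, 3.09 and 1.78 in iKO vehicle, 1.39 and 3.35 in WT CFA, and 17.2 and 14.5 in WT vehicle. Ccl7 was at 3.25 and 3.97 CPM in iKO CFA, 0.760 and 0.230 in iKO vehicle, 1.76 and 0.924 in WT CFA, and 9.25 and 8.31 in WT vehicle. Both were highest in WT vehicle and next highest in iKO CFA, and Ccl7 was lowest in iKO vehicle without overlap. Ccl7 was lower in iKO under vehicle (-4.12 ± 0.56, adjusted p = 0.00353), fell with CFA in WT (-2.69 ± 0.52, adjusted p = 0.0131) and had an interaction of 5.53 ± 0.75 (adjusted p = 0.00561). The iKO difference and the interaction passed without each library in turn, while the fall in WT had adjusted p of 0.109 and 0.0512 without WT vehicle libraries 1 and 2. In iKO the CFA response of Ccl7 was 2.84 ± 0.55 (adjusted p = 0.0852, and 6.78e-05 with DESeq2). Ccl2 fell with CFA in WT (-2.75 ± 0.45, adjusted p = 0.00779), was lower in iKO under vehicle (-2.70 ± 0.45, adjusted p = 0.00723) and had an interaction of 3.68 ± 0.62 (adjusted p = 0.0125). With WT vehicle library 1 left out, these adjusted p were 0.0784, 0.0695 and 0.0775. Ccl12, a mouse ligand of Ccr2, passed nowhere and lay between 1.15 and 5.16 CPM.

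Ccl5 draws T cells and macrophages, and Ccl6 and Ccl9 are rodent ligands of Ccr1. Ccl5 was at 3.71 and 2.33 CPM in iKO CFA, 0.735 and 0.431 in iKO vehicle, 0.134 and 1.10 in WT CFA, and 24.7 and 13.0 in WT vehicle. It fell with CFA in WT (-4.99 ± 0.78, adjusted p = 0.00657), was lower in iKO under vehicle (-5.00 ± 0.77, adjusted p = 0.00543) and had an interaction of 7.34 ± 1.06 (adjusted p = 0.00736). In fits that omitted WT vehicle library 1, these adjusted p were 0.0735, 0.0602 and 0.0541. For Ccl6 the iKO CFA libraries were highest. Ccl6 was at 18.2 and 17.5 CPM in iKO CFA, 3.53 and 1.95 in iKO vehicle, 2.51 and 6.50 in WT CFA, and 12.8 and 11.5 in WT vehicle. It was lower in iKO under vehicle (-2.14 ± 0.44, adjusted p = 0.0157) and had an interaction of 4.13 ± 0.62 (adjusted p = 0.00844), with adjusted p of 0.116 and 0.0554 without WT vehicle library 1. Its CFA response in iKO was 2.70 ± 0.45 (adjusted p = 0.0831, and 5.84e-06 with DESeq2). Ccl9 was at 9.64 and 9.10 CPM in iKO CFA, 4.02 and 2.61 in iKO vehicle, 2.32 and 7.05 in WT CFA, and 16.3 and 14.5 in WT vehicle. The WT vehicle pair was highest and the WT CFA libraries differed widely from each other. Ccl9 fell with CFA in WT (-1.73 ± 0.46, adjusted p = 0.0367), was lower in iKO under vehicle (-2.21 ± 0.47, adjusted p = 0.0166) and had an interaction of 3.22 ± 0.65 (adjusted p = 0.0231). With WT vehicle library 1 left out, these adjusted p were 0.209, 0.123 and 0.115. Ccl3 and Ccl4, macrophage inflammatory proteins, stayed at or below 0.685 and 2.55 CPM and passed nowhere.

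**Figure D3:**
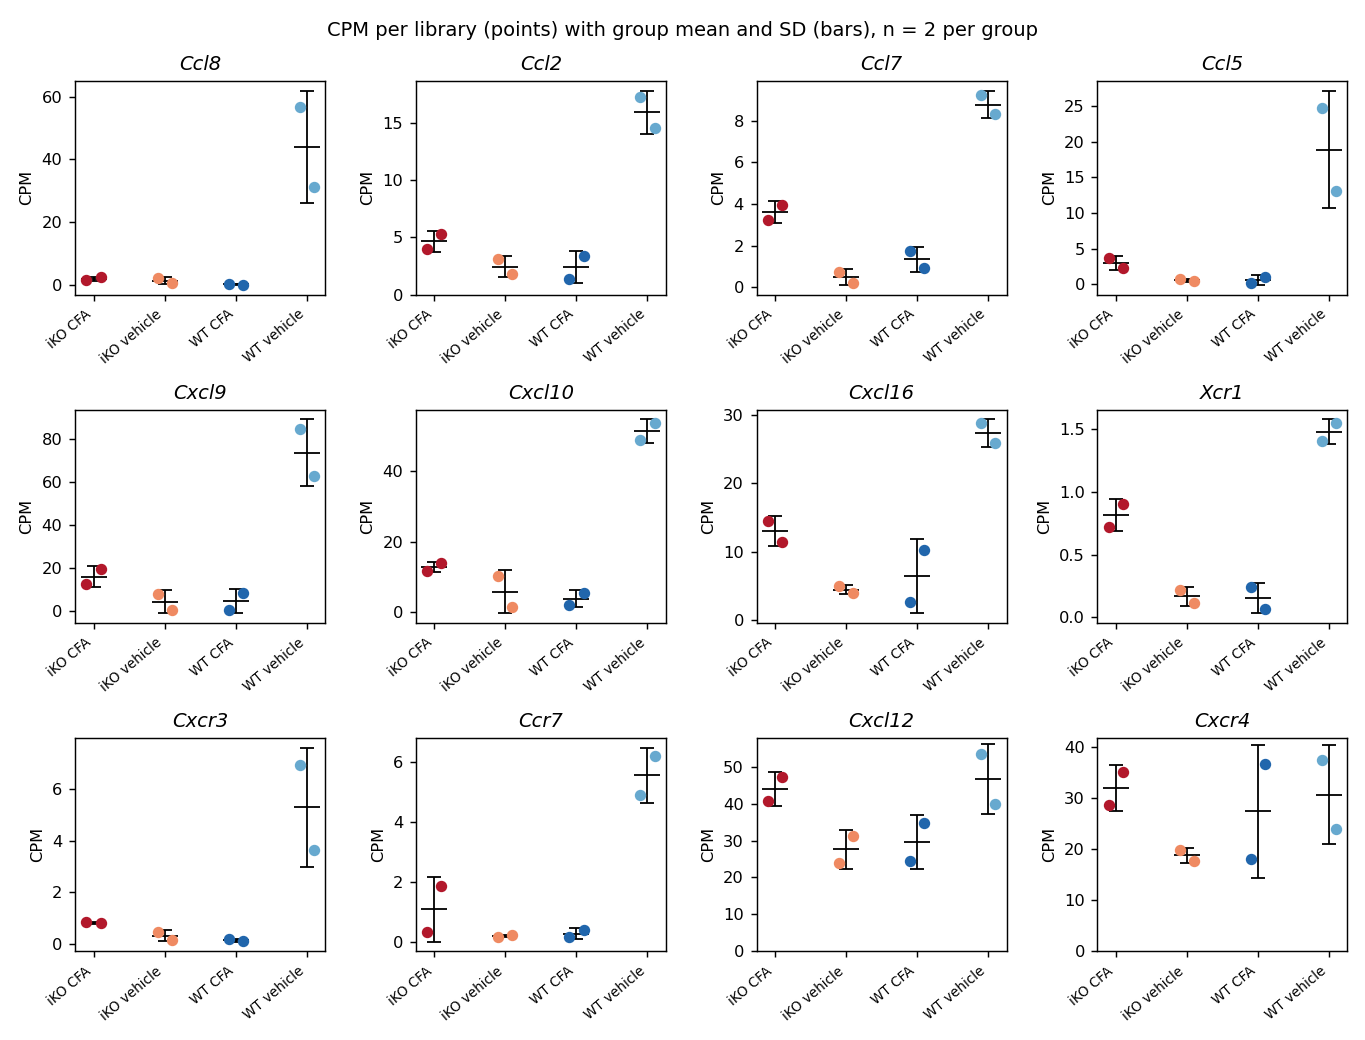
CPM of 12 members in each library (points), by group, with the group mean (long mark) and SD (bars), n = 2 per group and linear axes. The first 10 panels are highest in WT vehicle, with Ccl8 at most at 2.38 CPM in the other groups against 56.6 and 31.2 CPM there, while for Cxcl12 and Cxcr4 the WT vehicle libraries overlap those of iKO CFA.

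Ccr2, the receptor of inflammatory monocytes, was high in both iKO CFA and WT vehicle, while for Ccr1 the WT vehicle libraries overlapped those of WT CFA. Ccr2 was at 18.6 and 22.5 CPM in iKO CFA, 6.03 and 2.87 in iKO vehicle, 4.30 and 11.4 in WT CFA, and 16.4 and 16.3 in WT vehicle. Ccr1, found on neutrophils and monocytes, was at 9.43 and 10.1 CPM in iKO CFA, 1.20 and 1.29 in iKO vehicle, 1.15 and 5.03 in WT CFA, and 7.87 and 3.60 in WT vehicle. For both, the iKO CFA libraries were the highest of all. The next highest library was of WT vehicle, at 16.4 CPM for Ccr2 and 7.87 CPM for Ccr1. Ccr2 was lower in iKO under vehicle (-1.87 ± 0.47, adjusted p = 0.0301) and had an interaction of 3.27 ± 0.66 (adjusted p = 0.0230). Ccr1 was lower in iKO under vehicle (-2.20 ± 0.64, adjusted p = 0.0471) and had an interaction of 3.87 ± 0.89 (adjusted p = 0.0342). In fits that omitted WT vehicle library 1, the adjusted p were 0.165 and 0.106 for Ccr2, and 0.327 and 0.166 for Ccr1. Neither passed with CFA in WT, at -1.06 ± 0.46 for Ccr2 (adjusted p = 0.143) and -0.90 ± 0.61 for Ccr1 (adjusted p = 0.338). Ccr3, the eosinophil receptor, was at most 1.18 CPM and passed nowhere.

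Macrophage markers moved with these receptors. Summed over 13 markers they were at 796 and 866 CPM in iKO CFA, 225 and 166 in iKO vehicle, 219 and 633 in WT CFA, and 995 and 750 in WT vehicle. Of the 13 markers 2 were lower with CFA in WT (8.71% of all genes), 11 were lower in iKO under vehicle (9.33% of all genes), and 11 had a positive interaction (6.19% of all genes). Csf1r and Aif1 were above 0 in every library, and the part of macrophage content in the receptor values was not tested.

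**Figure D4:**
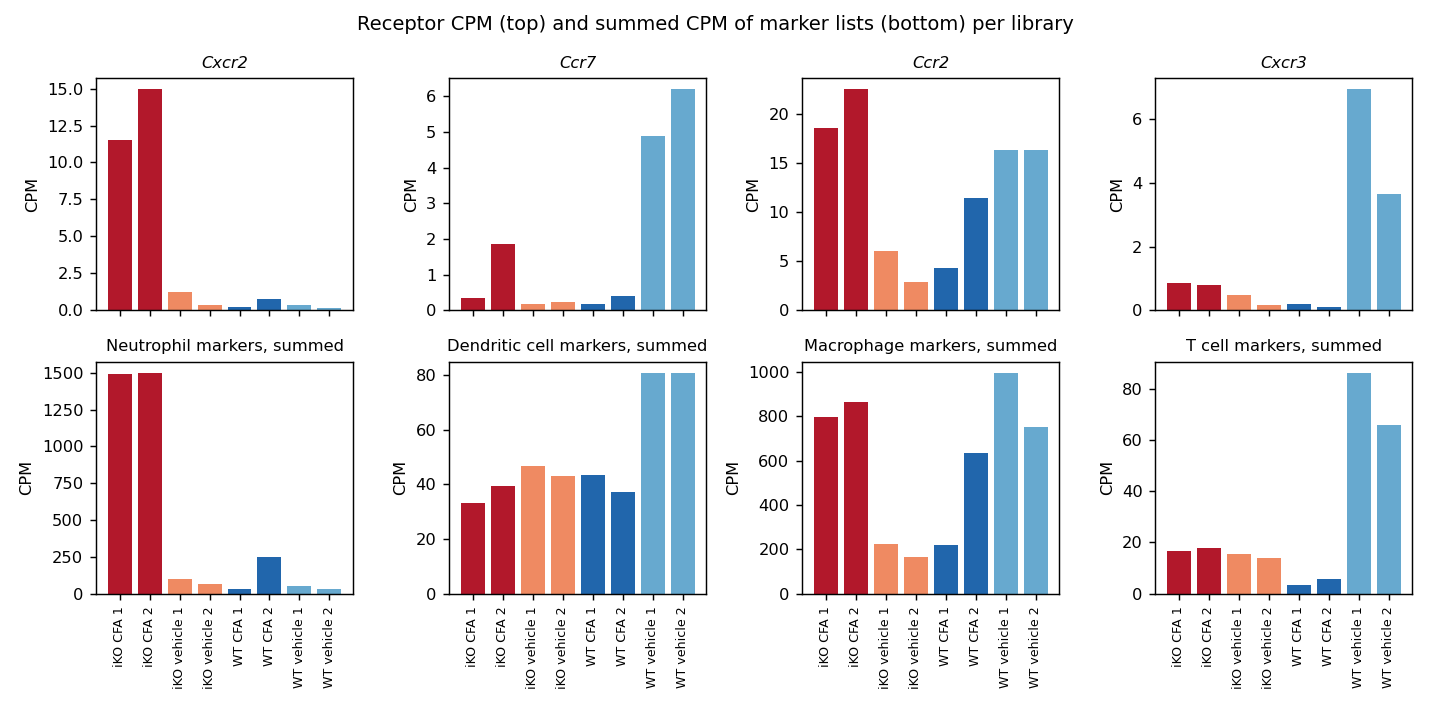
CPM of 4 receptors (top row) and the summed CPM of marker lists of cell types known to bear them (bottom row), 1 bar per library, coloured by group. Cxcr2 and the neutrophil markers are highest in iKO CFA, where the markers reach 1494 and 1498 CPM, and Cxcr3 and the T cell markers are highest in WT vehicle, where the markers reach 86.1 and 65.8 CPM.

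Most receptors of lymphocytes and dendritic cells were highest in WT vehicle. Of these 9 receptors, 5 fell with CFA in WT (8.71% of all genes), 5 were lower in iKO under vehicle (9.33% of all genes), and 4 had a positive interaction (6.19% of all genes). Cxcr6, the T cell receptor of Cxcl16, was at 0.964 and 2.22 CPM in iKO CFA, 0.343 and 0.144 in iKO vehicle, 0 and 0.240 in WT CFA, and 4.79 and 3.81 in WT vehicle. Ccr7, which guides T cells and mature dendritic cells to lymphoid tissue, was at 0.331 and 1.86 CPM in iKO CFA, 0.172 and 0.230 in iKO vehicle, 0.160 and 0.411 in WT CFA, and 4.89 and 6.20 in WT vehicle. Xcr1, a receptor of cross-presenting dendritic cells, was at 0.723 and 0.905 CPM in iKO CFA, 0.221 and 0.115 in iKO vehicle, 0.240 and 0.0684 in WT CFA, and 1.41 and 1.55 in WT vehicle. In all 3 the WT vehicle libraries were highest and both iKO CFA libraries were above both WT CFA libraries except for Ccr7. Cxcr6 fell with CFA in WT (-5.23 ± 1.05, adjusted p = 0.0151), was lower in iKO under vehicle (-4.11 ± 0.95, adjusted p = 0.0228) and had an interaction of 7.91 ± 1.40 (adjusted p = 0.0144). Ccr7 fell with CFA in WT (-4.29 ± 0.84, adjusted p = 0.0137), was lower in iKO under vehicle (-4.77 ± 0.86, adjusted p = 0.00960) and had an interaction of 6.74 ± 1.17 (adjusted p = 0.0135). Xcr1 fell with CFA in WT (-3.19 ± 0.84, adjusted p = 0.0354), was lower in iKO under vehicle (-3.10 ± 0.83, adjusted p = 0.0365) and had an interaction of 5.44 ± 1.17 (adjusted p = 0.0285). With WT vehicle library 1 left out, none of these passed, with adjusted p between 0.0670 (Ccr7, iKO under vehicle) and 0.195 (Xcr1, iKO under vehicle).

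Ccr8, a receptor of skin-homing and regulatory T cells, had 0 reads in both iKO CFA libraries, 1 and 0 in iKO vehicle, 0 in both WT CFA libraries, and 30 and 69 in WT vehicle (1.01 and 2.06 CPM). It was at least 34.7-fold lower with CFA in WT, against a floor of 3 reads over the group (adjusted p = 0.0242). It was lower in iKO under vehicle (adjusted p = 0.0298) by a ratio of 118-fold, with a wide counting interval of 20.7 to 4710 that rests on 1 read. Without WT vehicle libraries 1 and 2 the adjusted p were 0.147 and 0.168 for the first, and 0.173 and 0.208 for the second, which was also lost without iKO vehicle libraries 1 and 2 (0.132 and 0.180). Ccr4, Ccr9 and Cxcr5 were also highest in both WT vehicle libraries, at 0.447 to 3.15 CPM, but did not pass. Ccr10, a receptor of skin-homing T cells, overlapped among all groups. Lymphocyte and dendritic cell markers were also highest in WT vehicle. The dendritic cell sum was lower in iKO CFA than in iKO vehicle, unlike Cxcr6, Ccr7 and Xcr1. The median log2 fold change of the 8 markers in that comparison was 0.72, above 0 as for these receptors, and no marker passed. Summed over 12 T cell markers, CPM were 16.8 and 17.8 in iKO CFA, 15.3 and 13.9 in iKO vehicle, 3.31 and 5.82 in WT CFA, and 86.1 and 65.8 in WT vehicle. Over 10 B cell markers they were 17.6 and 17.4 in iKO CFA, 13.4 and 8.96 in iKO vehicle, 2.54 and 10.4 in WT CFA, and 87.7 and 56.9 in WT vehicle. All 12 T cell markers and 8 of 10 B cell markers fell with CFA in WT (8.71% of all genes). In iKO under vehicle 10 and 5 were lower (9.33% of all genes). Cd3d was at 0 in WT CFA library 2, while Cd3e and Ms4a1 were above 0 throughout. Summed over 8 dendritic cell markers, CPM were 33.4 and 39.3 in iKO CFA, 46.8 and 43.1 in iKO vehicle, 43.6 and 37.2 in WT CFA, and 80.7 and 80.8 in WT vehicle. Of these, 4 fell with CFA in WT (8.71% of all genes) and 4 were lower in iKO under vehicle (9.33% of all genes). A positive interaction was found for 4 (6.19% of all genes), and Flt3 and Itgax were above 0 throughout. The part of lymphocyte and dendritic cell content in the receptor values was not tested.

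Among the eosinophil and Th2 ligands, Ccl11 and Ccl22 changed. Ccl11, an eotaxin and ligand of Ccr3, was at 12.9 and 16.4 CPM in iKO CFA, 6.01 and 5.14 in iKO vehicle, 6.60 and 18.7 in WT CFA, and 43.7 and 35.4 in WT vehicle. The WT vehicle pair was highest and the iKO vehicle pair lowest. Ccl11 was lower in iKO under vehicle (-2.83 ± 0.44, adjusted p = 0.00547), fell with CFA in WT (-1.65 ± 0.42, adjusted p = 0.0307) and had an interaction of 3.04 ± 0.59 (adjusted p = 0.0200). In fits that omitted WT vehicle library 1, these adjusted p were 0.0577, 0.207 and 0.109. Ccl22, a dendritic cell product that acts on Ccr4, was at 0.934 and 2.71 CPM in iKO CFA, 1.79 and 0.230 in iKO vehicle, 0.401 and 0.753 in WT CFA, and 6.70 and 4.35 in WT vehicle. It fell with CFA in WT (-3.27 ± 0.90, adjusted p = 0.0410, and 0.227 without WT vehicle library 1). Ccl1, Ccl17 and Ccl24 stayed below 1 CPM and passed nowhere.

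Homing ligands included some of the exceptions to the general pattern, though Ccl19 was highest in WT vehicle. Ccl28, a mucosal and skin ligand of Ccr10, was at 0.482 and 0.192 CPM in iKO CFA, 1.10 and 0.603 in iKO vehicle, 4.33 and 2.50 in WT CFA, and 1.57 and 1.76 in WT vehicle. WT CFA was highest, iKO CFA lowest, and no group pair overlapped another. Under CFA, Ccl28 was lower in iKO ganglia (-3.34 ± 0.62, adjusted p = 0.0395). The adjusted p was 0.104 and 0.251 without iKO CFA libraries 1 and 2, 0.0604 and 0.0570 without iKO vehicle libraries 1 and 2, and 0.0899 and 0.0946 without WT vehicle libraries 1 and 2. Ccl19, a Ccr7 ligand of lymphoid stroma, had 12 and 19 reads in iKO CFA, 9 and 3 in iKO vehicle, 0 in both WT CFA libraries, and 27 and 18 in WT vehicle. It was at least 15.8-fold lower with CFA in WT (adjusted p = 0.0239). Its interaction also passed (fitted value 9.13, adjusted p = 0.0351), a fitted value that depends on the 0 reads in WT CFA and is no bound. With WT vehicle library 1 left out, these adjusted p were 0.177 and 0.191. Ccl27a, an epithelial ligand of Ccr10, was at 20.7 and 16.2 CPM in iKO CFA, 10.7 and 10.4 in iKO vehicle, 9.61 and 23.9 in WT CFA, and 14.9 and 15.3 in WT vehicle. The WT CFA pair spanned all other libraries, and Ccl27a passed nowhere, as did Ccl25.

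Ccl21a and Ccl21b are near-identical copies whose reads cannot be assigned with certainty, so their individual counts are uncertain. Ccl21a had 130 and 158 reads in iKO CFA, 28 and 3 in iKO vehicle, 40 and 13 in WT CFA, and 18 and 15 in WT vehicle. Ccl21b had 2 and 0 reads in iKO CFA, 45 and 36 in iKO vehicle, 25 and 14 in WT CFA, and 2 and 6 in WT vehicle. Reads of iKO CFA went almost wholly to Ccl21a (98.5% and 100%), while in iKO vehicle 38.4% and 7.69% did. The interaction of Ccl21b was -7.21 ± 1.64 (adjusted p = 0.0334), with adjusted p of 0.173 without WT vehicle library 1, 0.0755 without WT vehicle library 2, 0.126 and 0.122 without iKO vehicle libraries 1 and 2, and 0.0994 without iKO CFA library 2. Summed over both copies, CPM were 3.98 and 4.33 in iKO CFA, 1.79 and 1.12 in iKO vehicle, 1.74 and 0.924 in WT CFA, and 0.670 and 0.626 in WT vehicle. The iKO CFA libraries were highest and the WT vehicle libraries lowest in this sum, the opposite end from most members.

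**Figure D5:**
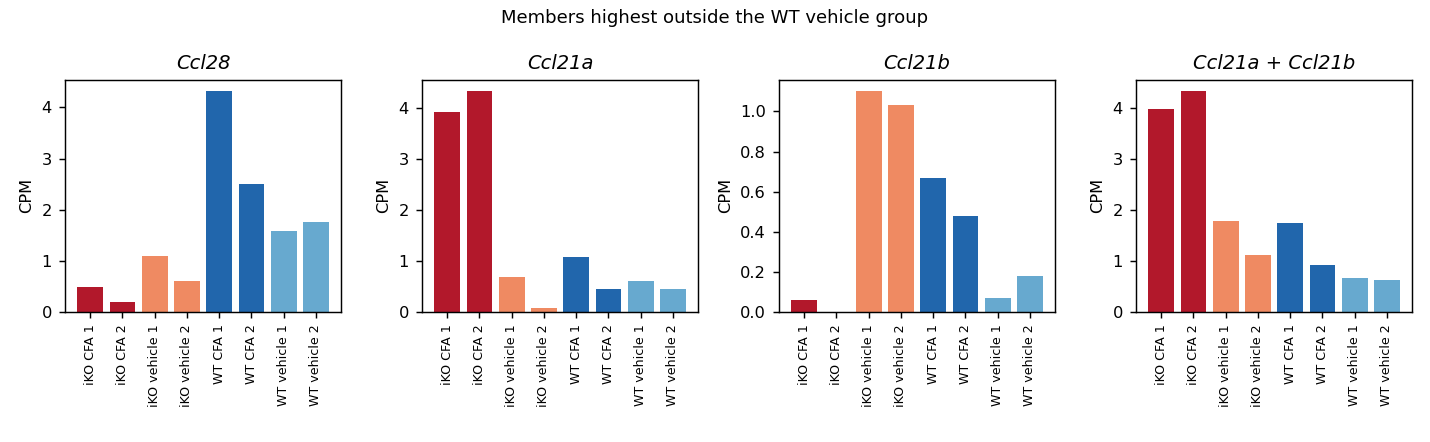
CPM of Ccl28, Ccl21a, Ccl21b and the sum of both Ccl21 copies, 1 bar per library, coloured by group, on linear axes that differ between panels. Ccl28 is highest in WT CFA at 4.33 and 2.50 CPM, and the Ccl21 sum is highest in iKO CFA at 3.98 and 4.33 CPM.

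Among the constitutive and neuronal ligands, Cxcl14 and Cxcl16 changed with the inducible members. Cxcl12, a stromal ligand that retains cells bearing Cxcr4, was at 40.7 and 47.3 CPM in iKO CFA, 23.9 and 31.3 in iKO vehicle, 24.4 and 34.8 in WT CFA, and 53.2 and 39.8 in WT vehicle. Its receptor Cxcr4 was at 28.7 and 35.1 CPM in iKO CFA, 19.8 and 17.7 in iKO vehicle, 18.1 and 36.5 in WT CFA, and 37.4 and 23.8 in WT vehicle. For Cxcl12 both iKO CFA libraries were above both iKO vehicle and both WT CFA libraries and overlapped WT vehicle. For Cxcr4 both iKO CFA libraries were above both iKO vehicle libraries, and the WT CFA libraries spanned most of the others. Cxcl12 had an interaction of 1.33 ± 0.35 (adjusted p = 0.0487, and 0.219 without WT vehicle library 1), and Cxcr4 passed in no comparison (interaction 0.93 ± 0.48, adjusted p = 0.218). Cxcl16, a membrane-bound ligand of Cxcr6, was at 14.5 and 11.4 CPM in iKO CFA, 4.90 and 3.93 in iKO vehicle, 2.56 and 10.2 in WT CFA, and 28.8 and 25.9 in WT vehicle. Cxcl14, made by many epithelia, was at 3.04 CPM in both iKO CFA libraries, 0.858 and 2.12 in iKO vehicle, 0.374 and 2.40 in WT CFA, and 12.5 and 7.21 in WT vehicle. In both genes WT vehicle was highest and the WT CFA libraries differed widely from each other. Cxcl16 fell with CFA in WT (-2.10 ± 0.52, adjusted p = 0.0290), was lower in iKO under vehicle (-2.63 ± 0.53, adjusted p = 0.0143) and had an interaction of 3.66 ± 0.73 (adjusted p = 0.0221). Cxcl14 fell with CFA in WT (-2.85 ± 0.76, adjusted p = 0.0367) and was lower in iKO under vehicle (-2.73 ± 0.75, adjusted p = 0.0397). In fits that omitted WT vehicle library 1, the adjusted p were 0.180, 0.106 and 0.111 for Cxcl16, and 0.236 and 0.255 for Cxcl14. Cx3cl1, the neuronal ligand fractalkine, lay between 2.22 and 4.62 CPM with both WT CFA libraries lowest, and passed nowhere (-0.86 ± 0.30 with CFA in WT, adjusted p = 0.0835). Xcl1, the ligand of Xcr1, was listed with this group without being a constitutive or neuronal ligand, and was at most 0.626 CPM.

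Genes that induce chemokines or carry their signals were read from lists outside the rule. Over all genes, 8.71% were lower and 8.12% higher with CFA in WT, 9.33% were lower in iKO under vehicle, 1.5% were higher in iKO under CFA, and 6.19% had a positive interaction. Of 14 NF-kB subunits and inhibitors, 8 fell and 1 (Nfkbib) rose with CFA in WT, 9 were lower in iKO under vehicle, and 6 had a positive interaction. Tnfaip3, a feedback inhibitor of NF-kB, was at 3.22 and 3.21 CPM in iKO CFA, 5.22 and 4.82 in iKO vehicle, 6.17 and 4.48 in WT CFA, and 25.4 and 22.9 in WT vehicle. The WT vehicle pair was highest, and Tnfaip3 fell with CFA in WT (-2.18 ± 0.24, adjusted p = 0.00188) and was lower in iKO under vehicle (-2.26 ± 0.24, adjusted p = 0.00128). Of 16 inducing cytokines and receptors, 6 fell and 1 (Ifngr2) rose with CFA in WT, 9 were lower in iKO under vehicle, and 7 had a positive interaction. Il1b, an inducer of Ccl2 and Cxcl1, was at 1.30 and 1.43 CPM in iKO CFA, 0.172 and 0.431 in iKO vehicle, 0.401 and 0.445 in WT CFA, and 13.1 and 8.88 in WT vehicle. Il1b fell with CFA in WT (-4.69 ± 0.48, adjusted p = 0.00148), was lower in iKO under vehicle (-5.19 ± 0.50, adjusted p = 0.000905) and had an interaction of 6.88 ± 0.67 (adjusted p = 0.00204). Of 20 genes that act downstream of the receptors, 5 fell with CFA in WT, 7 were lower in iKO under vehicle, 2 were higher in iKO under CFA, and 6 had a positive interaction. Those higher under CFA were Dock2 (1.66 ± 0.24, adjusted p = 0.0147), which drives leukocyte migration, and Plcb2 (2.24 ± 0.43, adjusted p = 0.0435), a phospholipase of blood cells. Among 6 tested receptors outside the rule, Ccrl2 fell with CFA in WT (-3.04 ± 0.36, adjusted p = 0.00251), and Ccrl2 (-2.95 ± 0.36, adjusted p = 0.00223) and Cx3cr1, the receptor of Cx3cl1 (-1.38 ± 0.41, adjusted p = 0.0477), were lower in iKO under vehicle. Nfkbib and Ifngr2 were named after their values had been seen. The calls of the genes in these lists were not followed when 1 library was left out.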

How the data were processed

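Per the labels' protocols, dorsal root ganglia were flash frozen, an RNeasy kit was used for extraction, and sequencing was on a NovaSeq. The submitters' processing notes name HISAT2 2.2.1, SAMtools 1.19.2, featureCounts 2.0.6, DESeq2 and the build GRCm39. The authors deposited raw counts of reads per gene for each of 8 libraries. The annotation, strand setting, age, sex and dose are not given in the sources used here.

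Counts were tested with edgeR 4.0.16 in R 4.3.3 (filterByExpr, TMM scaling, quasi-likelihood fit with 1 mean per group over all 8 libraries, Benjamini-Hochberg adjustment over 20235 genes, threshold 0.05). CPM, computed from the counts, used TMM-scaled library sizes, and errors after ± are standard errors of log2 fold changes. The procedure was tested on simulated data. Bounds use a floor of 3 reads over a group. Members called in any comparison and the 8 with most reads are given by library, and other members by range. From gene lists, at most the 4 genes with the smallest p were named. A member and a marker gene are not reported here by name, though counts and medians over the lists include them. Members and lists were chosen with earlier results of these data known. Alternatives were RLE scaling, other filters, DESeq2 1.42.0, another dispersion setting, fits to the compared groups alone, a replicate block, each library left out, and, added after seeing the data, both WT vehicle libraries left out. Promoters came from RefSeq's GRCm38.p6 by symbol, and no coordinates were converted.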

Additional observations from a re-analysis of the deposited data

Results flagged for a closer look

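The CFA response differed between iKO and WT by the interaction term for 19 of 45 members tested (9.36% of all genes). Of these, 18 are given here, each with an adjusted p under 0.05 in edgeR's quasi-likelihood test. Over all genes, 6.19% passed as positive and 3.17% as negative. Most of the members' calls were lost in 1 or more fits that left out 1 library. Values are the log2 response to CFA in iKO minus that in WT. They were positive for Ccl19 (9.13), Ccl8 (9.01), Cxcr6 (7.91), Ccl5 (7.34), Ccr7 (6.74), Cxcr3 (6.46), Ccl7 (5.53), Xcr1 (5.44), Cxcl10 (4.95). They were also positive for Ccl6 (4.13), Ccr1 (3.87), Ccl2 (3.68), Cxcl16 (3.66), Ccr2 (3.27), Ccl9 (3.22), Ccl11 (3.04) and Cxcl12 (1.33). Ccl21b was the only negative value (-7.21), and its reads cannot be told apart with certainty from those of Ccl21a. The value of Ccl19 depends on the 0 reads in WT CFA and is no bound. The term holds all 4 groups, so it includes the WT vehicle libraries, which stood apart from the other 6 in nuclear noncoding RNA and immediate early genes. Their part in these differences was not tested.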

How the results depend on the processing

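Counts below are of members called, and percentages in brackets are the shares of all genes called the same way. Fits to the compared groups alone gave 11 lower for CFA in WT (3.84%). For CFA in iKO they gave 19 higher (22.0%) and 1 lower (23.4%). They gave 1 higher (19.7%) and 32 lower (23.2%) for iKO against WT under vehicle. For iKO against WT under CFA they gave 0 higher (0.166%) and 0 lower (0.0166%). DESeq2 gave 23 lower for CFA in WT (13.8%) and 14 higher for CFA in iKO (7.86%). It gave 1 higher (11.8%) and 27 lower (14.5%) for iKO against WT under vehicle. Under CFA it gave 7 higher (4.41%) and 2 lower (1.68%), and for the interaction 27 positive (11.3%) and 1 negative (9.15%). Without the low-count filter 6 were higher (1.33%) for CFA in iKO and 3 (1.68%) for iKO against WT under CFA. With legacy=FALSE in edgeR 25 were lower for CFA in WT (11.7%). That setting gave 4 higher (0.81%) and 1 lower (0.084%) for CFA in iKO. It gave 1 higher (9.97%) and 26 lower (12.8%) for iKO against WT under vehicle. Under CFA it gave 2 higher (2.32%) and 1 lower (0.356%), and for the interaction 24 positive (7.22%) and 1 negative (3.85%). Without both WT vehicle libraries 0 were higher (0.782%) and 0 lower (0.0845%) for iKO against WT under CFA. That choice was made after seeing the data. Leaving out 1 library at a time gave 0 to 1 higher and 1 to 28 lower for CFA in WT, 0 to 20 higher and 0 to 1 lower for CFA in iKO, 0 to 1 higher and 2 to 30 lower for iKO against WT under vehicle, 0 to 22 higher and 0 to 2 lower under CFA, and 3 to 28 positive and 0 to 2 negative for the interaction. These ranges are given without bracketed shares. In each comparison the share of all genes called also varied widely with the library left out. The ranges therefore do not set the members apart from other genes. The causes were not tested. Where a library is left out of a pair, the remaining one is assumed to vary like the other groups.

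Libraries share replicate numbers across groups, but same-numbered libraries did not deviate together (correlations of -0.144 to 0.0275 over all genes and -0.103 to 0.163 over the members). With a replicate block 13 members were called for CFA in WT (12.5% of all genes) and 0 for CFA in iKO (0%). For iKO against WT 15 were called under vehicle (12.6%) and 2 under CFA (1.02%). The interaction had 14 (5.25%), with 0 negative (1.1%).

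Members not called in the comparison named changed sign when 1 library was left out. For CFA in WT, Ccl27a ranged from -0.66 (without WT CFA library 2) to 0.65, and Cxcr4 from -0.76 to 0.25 (without WT CFA library 1), with 0.20 without WT vehicle library 1. For iKO against WT under CFA, and lowest without WT CFA library 1, Ccl11 ranged from -0.35 to 1.14, Ccl27a from -0.38 to 0.93 and Cxcr4 from -0.20 to 0.81, and Ccl27a was at -0.051 without iKO CFA library 1. The interaction of Ccr9 ranged from -0.30 (without iKO CFA library 2) to 6.73. With 2 libraries a group and members at a few reads, small changes were not detectable.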

Other observations

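Many members lie side by side in the genome. In RefSeq's gene order for GRCm38.p6, 47 of the 48 members were matched and 27 fell into 7 runs of neighbours with no other protein-coding gene listed between them. A run of 6 ligands held Ccl2, Ccl7, Ccl11, Ccl12, Ccl8 and Ccl1, and a run of 5 held Ccl5, Ccl9, Ccl6, Ccl3 and Ccl4. Within the ligand run, the log2 fold change of Ccl8 with CFA in WT was -8.50 (adjusted p = 0.00209), while Ccl1 was below 1 CPM in every library. Cxcl5, which was too low to test, had 0 reads in both iKO CFA libraries, 7 and 0 in iKO vehicle, 9 and 0 in WT CFA, and 4 and 8 in WT vehicle.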
